A study of Mus musculus with 38 samples.

Results

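Reads from 9 hormone and peptide genes of the pituitary gland and the hypothalamus were followed through hippocampal RNA-seq libraries of 38 mice. The genes were Pomc, Prl, Gh, Cga, Oxt, Avp, Hcrt, Pmch and Cartpt, taken by Ensembl identifier from the 48709 genes in each count file. They were selected on their read counts, because single mice held extreme values, so these extremes are described without a test. Wild-type (WT) mice and APPPS1ΔE9 mice received placebo chow or chow with 2 g per kg of the oligomer modulator anle138b. APPPS1ΔE9 is a transgenic line that carries the Swedish form of human APP and a PS1ΔE9 transgene and deposits amyloid. All mice were on a C57BL/6 background. The pre-plaque group was treated from 2 months of age for 4 months and analysed at 6 months, with 4 mice in each of its 4 arms. The post-plaque group was treated from 6 months of age for 4 months and analysed at 10 months, with 5 placebo-treated WT mice, 5 anle138b-treated WT mice, 5 placebo-treated APPPS1ΔE9 mice and 7 anle138b-treated APPPS1ΔE9 mice. Mice are named here by the mouse numbers in the sample labels.

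The anterior pituitary makes peptide hormones in separate cell types: corticotrophs cut the Pomc product into adrenocorticotropic hormone, lactotrophs make prolactin from Prl, somatotrophs make growth hormone from Gh, and gonadotrophs and thyrotrophs make the common alpha subunit encoded by Cga. Large hypothalamic neurons make oxytocin and vasopressin from Oxt and Avp and release them in the posterior pituitary. Neurons of the lateral hypothalamus make hypocretin from Hcrt and melanin-concentrating hormone from Pmch, and Cartpt encodes a feeding-related peptide that is also made in several other brain regions. The hippocampus receives fibres from some of these neurons and is not a known main source of the pituitary hormones. In bulk tissue, more cells of a type and more RNA per cell cannot be told apart.

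Libraries held 15847985 to 31895808 counted reads, with a median of 24530658, so that 1 read was worth 0.0314 to 0.0631 CPM, the count scaled to a common library total (counts per M reads). App was 3274 to 4286 CPM in the APPPS1ΔE9 mice and 1522 to 1799 CPM in the WT mice, without overlap, which includes 4 pre-plaque WT mice on placebo whose titles and genotype entries disagree. The sum of 10 hippocampal marker genes was 849 to 1743 CPM over all mice, and none of the 10 was at 0 in any mouse. The mice are stated to be male, but 12 libraries had 1154 to 1453 CPM of Xist and at most 1.89 CPM of Y-linked genes, while the other 26 had at most 5.41 CPM of Xist. Of these 12 libraries, 11 came from WT mice. The 2 mice with the highest pituitary hormone reads, 52 and 33, are both WT and both among these 12.

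The 4 anterior pituitary genes lie on different chromosomes. In GRCm38, Prl spans chr13:27057570-27065205 and Pomc spans chr12:3954951-3960642, both on the plus strand. Gh spans chr11:106300271-106301865 on the minus strand, and Cga spans chr4:34893779-34907370 on the plus strand. Because Prl, Pomc and Cga reads were high in the same mice, the 250 bases before the RefSeq start of each gene (GRCm38.p6, plus strand) are given, with matches to TATNCAT on either strand in capitals, the core of the site of the pituitary factor Pit-1. They cover chr13:27057320-27057569 for Prl, chr12:3954695-3954944 for Pomc and chr4:34893529-34893778 for Cga.
Prl: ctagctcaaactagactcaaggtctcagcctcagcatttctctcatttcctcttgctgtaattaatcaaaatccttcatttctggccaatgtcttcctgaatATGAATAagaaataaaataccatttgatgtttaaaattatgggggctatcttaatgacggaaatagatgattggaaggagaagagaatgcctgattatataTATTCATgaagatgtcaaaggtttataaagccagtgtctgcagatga
Pomc: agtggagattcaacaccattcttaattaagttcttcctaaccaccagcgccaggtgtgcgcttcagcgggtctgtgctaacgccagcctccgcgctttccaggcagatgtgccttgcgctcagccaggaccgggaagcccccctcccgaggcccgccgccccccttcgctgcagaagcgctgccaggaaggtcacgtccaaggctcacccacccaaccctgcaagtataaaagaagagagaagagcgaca
Cga: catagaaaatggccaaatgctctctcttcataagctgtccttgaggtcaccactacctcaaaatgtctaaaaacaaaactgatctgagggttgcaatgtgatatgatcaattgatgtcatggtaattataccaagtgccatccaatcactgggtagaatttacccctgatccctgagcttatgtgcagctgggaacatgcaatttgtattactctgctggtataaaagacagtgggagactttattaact
The Prl window held 2 matches, beginning 148 and 47 bases before the start. The Pomc and Cga windows held 0. Of 32851 promoters, 7.92% held TATNCAT in the same 250 bases. The letters TATAAA, which overlap none of the capitals, were found in all 3 windows and in these 250 bases of 12.4% of all promoters.

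Prl, the prolactin gene, had a median of 4 reads per mouse and 12289 reads in all, of which 91.04% came from 2 mice. In post-plaque WT mice on placebo, Prl was counted 5419, 388, 39, 205 and 4 times in mice 52, 53, 54, 55 and 56. In pre-plaque WT mice on anle138b, it was counted 5769, 2, 5 and 18 times in mice 33, 39, 41 and 83. One mouse in each of these arms thus held nearly all reads, at 342 CPM in mouse 52 and 240.1 CPM in mouse 33, against a median of 0.160 CPM over all mice. Mouse 53 came next with 15.4 CPM.

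The other arms showed lower and uneven Prl counts. In the pre-plaque group, counts were 68, 2, 2 and 2 in placebo-treated WT mice 30, 31, 37 and 77, and 29, 34, 2 and 4 in placebo-treated APPPS1ΔE9 mice 17, 71, 74 and 75. They were 144, 75, 1 and 9 in anle138b-treated APPPS1ΔE9 mice 15, 16, 27 and 84. Each of these 3 arms held at least 1 mouse with 29 or more reads and at least 1 mouse with 2 or fewer. In the post-plaque group, counts were 0, 0, 1, 2 and 6 in anle138b-treated WT mice and 2, 4, 1, 1 and 1 in placebo-treated APPPS1ΔE9 mice. The anle138b-treated APPPS1ΔE9 mice had a lowest count of 0, a median of 3 and a highest count of 26. In all, 3 mice had no Prl read and 13 had 10 or more.

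Gh, the growth hormone gene, followed Prl in most mice. Its counts were 1730, 146, 16, 80 and 2 in placebo-treated WT mice 52 to 56 of the post-plaque group and 1617, 0, 6 and 5 in pre-plaque WT mice 33, 39, 41 and 83 on anle138b. Mice 52 and 33 held 87.5% of all Gh reads, at 109.2 and 67.3 CPM. Among the other pre-plaque mice, Gh was counted 5, 0, 0 and 1 times in placebo-treated WT mice, 11, 13, 1 and 3 times in placebo-treated APPPS1ΔE9 mice and 45, 23, 0 and 16 times in anle138b-treated APPPS1ΔE9 mice. The arms overlapped, and in each of them the mouse with the most Prl reads also had the most Gh reads. In the post-plaque group, counts were 0, 1, 0, 0 and 0 in anle138b-treated WT mice and 1, 26, 0, 2 and 0 in placebo-treated APPPS1ΔE9 mice. The anle138b-treated APPPS1ΔE9 mice had a lowest count of 0, a median of 1 and a highest count of 66. Over all mice, 13 had no Gh read.

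**Figure D1:**
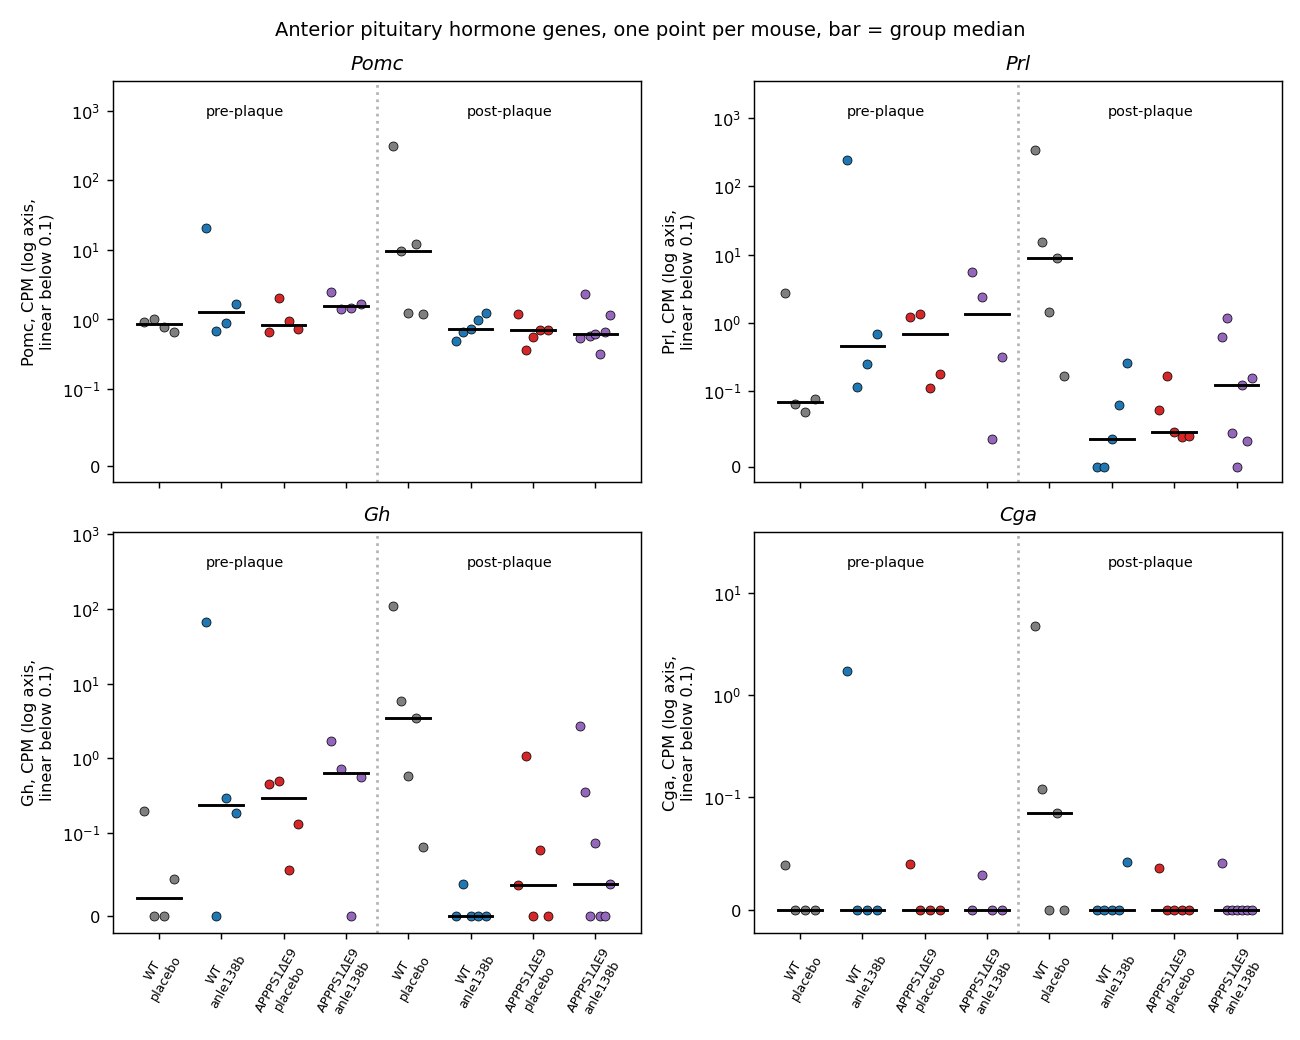
CPM of Pomc, Prl, Gh and Cga (log axis, linear below 0.1) in each mouse, by arm, with the pre-plaque group on the left, the post-plaque group on the right and a bar at each arm's median. Mouse 52 (placebo-treated WT, post-plaque) is the highest in all 4 plots, at 342 CPM for Prl, and mouse 33 (anle138b-treated WT, pre-plaque) is the second highest in all 4.

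The share of Prl among the summed Prl and Gh reads could be read in 15 mice with 10 or more reads of either gene. In 11 of these it lay between 70.9% and 78.3%. It was 75.8% in mouse 52 (95% Wilson interval 74.8% to 76.8%) and 78.1% in mouse 33 (77.1% to 79.0%), intervals that cover counting error only and do not overlap. Mice 53 and 55, with 388 and 205 Prl reads, had shares of 72.7% and 71.9%. The remaining 4 mice stood apart: the share was 18.5% in mouse 58 (11.6% to 28.3%), 13.3% in mouse 86 (5.31% to 29.7%), 36% in mouse 84 (20.2% to 55.5%) and 93.2% in mouse 30 (84.9% to 97.04%). Mice 58, 86 and 84 thus had more Gh than Prl reads, unlike the other 12.

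**Figure D2:**
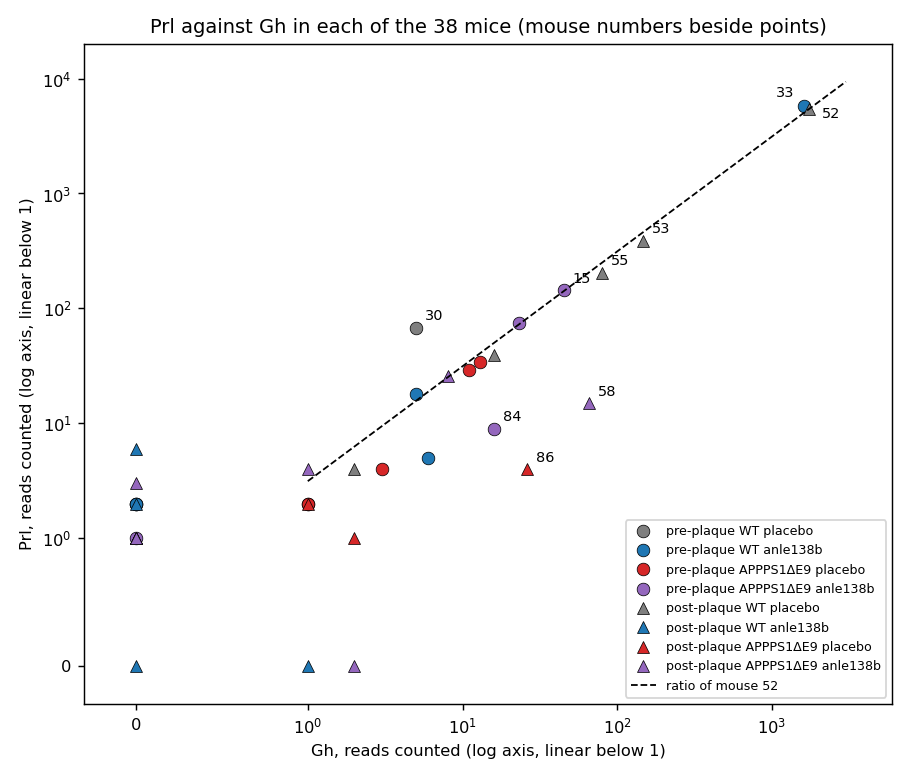
Reads counted for Prl against reads counted for Gh in each of the 38 mice (both log axes, linear below 1), with the ratio of mouse 52 as a dashed line. Most mice with 10 or more reads lie near the line, from 18 Prl reads in mouse 83 to 5769 in mouse 33, while mice 58, 84 and 86 lie below it and mouse 30 above it.

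Pomc, the precursor of adrenocorticotropic hormone, was counted at least 8 times in every mouse, with a median of 22.5 reads or 0.934 CPM. In post-plaque WT mice on placebo, it was counted 4985, 242, 34, 286 and 29 times in mice 52 to 56. In pre-plaque WT mice on anle138b, it was counted 493, 12, 18 and 45 times. Mouse 52 reached 315 CPM and mouse 33 reached 20.5 CPM, and mice 55 and 53 followed. Every other mouse lay below mouse 53. In the remaining pre-plaque arms, counts were 23, 25, 22 and 15 in placebo-treated WT mice, 16, 52, 17 and 16 in placebo-treated APPPS1ΔE9 mice and 66, 45, 40 and 47 in anle138b-treated APPPS1ΔE9 mice. In the remaining post-plaque arms, counts were 12 to 29 in anle138b-treated WT mice, 9 to 32 in placebo-treated APPPS1ΔE9 mice and 8 to 51 in anle138b-treated APPPS1ΔE9 mice, so these arms overlapped throughout. Over all mice, 29 of 38 lay within a factor of 2 of the median.

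The mix of the pituitary genes differed between the 2 highest mice. For each Prl read, mouse 52 had 0.920 Pomc reads and mouse 33 had 0.0855. Cga, the alpha subunit gene, was counted 75 times in mouse 52 and 41 times in mouse 33, at 4.73 and 1.71 CPM. It was counted 3 times in mouse 53, 2 times in mouse 55, 1 time in 6 other mice and not at all in 28 mice, where a count of 0 allows up to 3 reads.

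Other genes of the anterior pituitary were read in few copies. The genes described are Pou1f1, Tbx19 and Pitx1 (transcription factors), Ghrhr and Gnrhr (receptors for the releasing hormones) and the beta subunits Tshb, Lhb and Fshb. Pou1f1 was counted 5 times in mouse 52 and 4 times in mouse 33, Ghrhr 8 and 3 times, Tbx19 2 and 4 times, and Gnrhr 3 and 1 times. The medians of these 4 genes over all mice were 0. Fshb was counted 1 time in each of the 2 mice. The other 3 genes did not single out these mice: Pitx1 reached 47 reads in mouse 39, Tshb was counted 13 to 55 times in all mice, and Lhb was counted 7 and 14 times in mice 52 and 33 against a highest count of 31.

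The labels give a sequencing lane for each library. Mouse 52 was in lane 3 with mice 53, 54 and 55, whose Prl values were 4.49%, 0.418% and 2.58% of its CPM. Their Gh values were 5.29%, 0.537% and 3.15% of it, and their Pomc values 3.05%, 0.396% and 3.91%. The fifth mouse of that arm, mouse 56, was in lane 4 and had 4 Prl reads. Mouse 33 was labelled lane 4, as were 5 other pre-plaque libraries, whose Prl values were 0.0299% to 1.13% of its CPM, the highest in mouse 30. Their Gh values were 0% to 0.298% of it and their Pomc values 3.27% to 5.03%. These Pomc values, 0.670 to 1.03 CPM, lay near the median of 0.934 CPM over all mice, and mouse 33 had 20.5 CPM. Mice 15 and 16, with 144 and 75 Prl reads, were in lane 6, which held neither mouse 52 nor mouse 33. Whether reads passed between libraries was not tested.

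Oxt and Avp, the oxytocin and vasopressin genes, face each other on chromosome 2 of GRCm38 with 3565 bases between their ends. Oxt spans chr2:130576173-130577054 on the plus strand and Avp spans chr2:130580620-130582554 on the minus strand. Both encode a carrier protein, neurophysin, beside the hormone. Their transcripts in GENCODE M21 shared an identical run of 127 bases, at positions 156 to 282 of 537 in Oxt and 144 to 270 of 577 in Avp. The run lies in the coding sequence, in the last 2 bases of exon 1 and the first 125 bases of exon 2 of both genes (chr2:130576328-130576329 and chr2:130576591-130576715 for Oxt, chr2:130582410-130582411 and chr2:130581133-130581257 for Avp). It is shown because a read that falls within it cannot be assigned to 1 of the genes.
Oxt and Avp run: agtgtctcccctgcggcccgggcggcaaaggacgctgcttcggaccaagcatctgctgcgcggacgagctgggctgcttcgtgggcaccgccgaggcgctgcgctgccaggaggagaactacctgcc
Of the 488 stretches of 50 bases in the Oxt transcript, 78 were also in the Avp transcript. How reads in this run were counted was not tested.

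Avp was counted most in pre-plaque APPPS1ΔE9 mice on anle138b, with 20, 33, 58 and 1 reads in mice 15, 16, 27 and 84. Mouse 27 reached 2.13 CPM, mouse 16 reached 1.03 CPM and the pituitary-rich mouse 33 came next with 0.957 CPM, against a median of 0.137 CPM. In the other pre-plaque arms, counts were 10, 5, 16 and 0 in placebo-treated WT mice 30, 31, 37 and 77, 23, 0, 2 and 9 in anle138b-treated WT mice and 8, 1, 2 and 4 in placebo-treated APPPS1ΔE9 mice. The arms overlapped, each with a mouse at 1 read or fewer. No post-plaque mouse had more than 9 Avp reads, and mouse 52 had 5.

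Oxt was counted 50 times over all mice and was at 0 in 19 of them. Mice 27 and 16 had 10 reads each and mouse 33 had 6, the same 3 mice that led for Avp. They reached 0.368, 0.314 and 0.250 CPM. No other mouse had more than 3 Oxt reads.

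Hcrt and Pmch were near the limit of counting. Hcrt, the hypocretin gene, had 0 to 2 reads in every mouse and 0 in 11 of them. Pmch had 0 to 8 reads and a median of 2, with 8 reads in mice 37 and 16. No mouse had 10 reads of either gene, so differences between mice were not detectable at this depth. Mouse 52 had 0 Hcrt reads and 1 Pmch read, and mouse 33 had 1 and 2.

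Cartpt was the most even member. It was counted 9 to 88 times, between 0.364 and 3.26 CPM, and 31 of 38 mice lay within a factor of 2 of the median of 1.23 CPM. In the pre-plaque group, counts were 74, 79, 77 and 28 in placebo-treated WT mice, 31, 19, 26 and 38 in anle138b-treated WT mice, 26, 25, 22 and 29 in placebo-treated APPPS1ΔE9 mice and 51, 88, 59 and 25 in anle138b-treated APPPS1ΔE9 mice. The mice with 51 or more reads were thus 3 of the first arm and 3 of the last. In the post-plaque group, counts were 13, 16, 24, 36 and 25 in placebo-treated WT mice, 55, 34, 20, 32 and 29 in anle138b-treated WT mice and 63, 14, 33, 26 and 11 in placebo-treated APPPS1ΔE9 mice. The anle138b-treated APPPS1ΔE9 mice had a lowest count of 9, a median of 27 and a highest count of 34, and all arms of this group overlapped. Mice 52 and 33, which led for the pituitary genes, had 13 and 31 Cartpt reads.

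**Figure D3:**
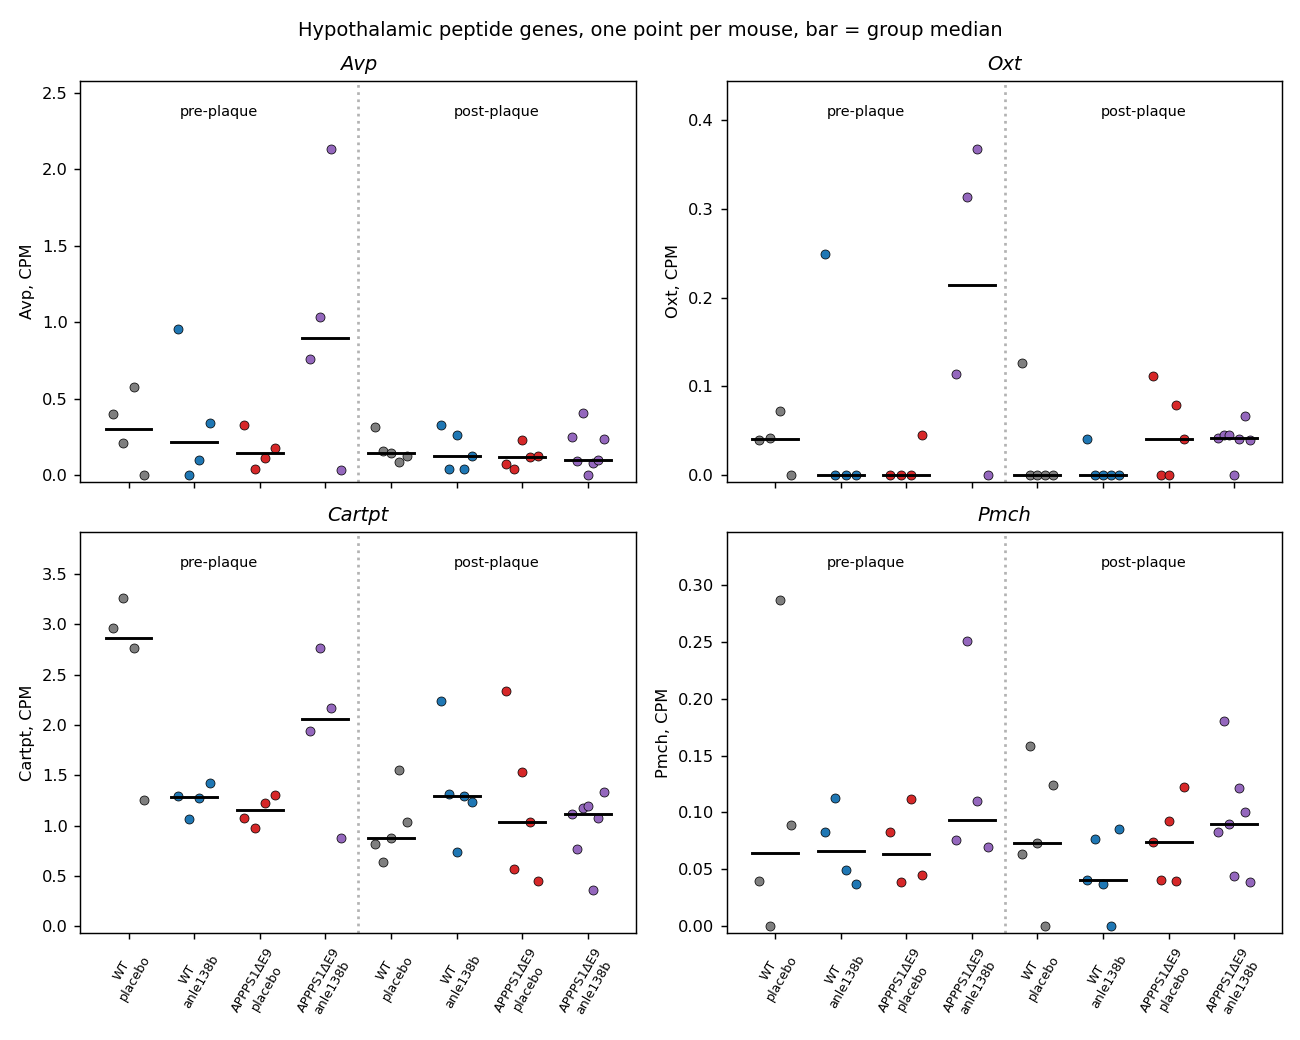
CPM of Avp, Oxt, Cartpt and Pmch in each mouse, by arm, with a bar at each arm's median. Avp and Oxt were highest in mouse 27 (2.13 and 0.368 CPM), a pre-plaque APPPS1ΔE9 mouse on anle138b, while Cartpt stayed between 0.364 and 3.26 CPM.

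Per 1000 bases of exon, Cartpt had the highest median level of the 9 genes, 0.963 CPM, followed by Pomc at 0.709, Avp at 0.238, Prl at 0.114, Pmch at 0.102, Gh at 0.0941, Hcrt at 0.0562 and Oxt at 0.0365, with Cga at 0. The ranges over mice overlapped between every pair of neighbours in this order. Ordered by the highest single mouse, Prl came first at 243 CPM per 1000 bases, then Pomc at 239 and Gh at 127, and Cga followed at 4.96. Overlapping genes limit 3 of these values. The start of Prl overlaps an antisense transcript, Gm47888, and Cga and Pmch overlap Platr9 and Parpbp on the opposite strand. Without the strand setting of the counting, which is not given in the sources used here, such reads cannot be told apart.

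Group differences were tested to ask whether genotype or anle138b went with the members' levels, with edgeR's quasi-likelihood test at a Benjamini-Hochberg adjusted p under 0.1. The same reads that led to the choice of the genes enter these tests. Members with too few reads did not pass the filter on low counts, which kept 2 to 5 of the 9 in each comparison, most often Pomc and Cartpt. Members that passed only because 1 arm held a mouse such as 52 or 33 are among them. None of the tested members was called in the 8 comparisons of 1 arm with another.

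In the placebo-treated mice, APPPS1ΔE9 against WT, 0 of 2 tested members were called in the pre-plaque group against 0.0715% of all genes. The member with the smallest p was Cartpt, at a log2 fold change of -1.16 with a standard error of 0.26 (adjusted p = 0.282), and its 4 APPPS1ΔE9 values, 0.973 to 1.30 CPM, lay within or below the WT range of 1.25 to 3.26 CPM. Of 8 fits that each left out 1 mouse, with values of -1.37 to -1.02, only 1 called it. That fit left out WT mouse 77, the mouse with 28 reads (-1.37, adjusted p = 0.0227 by edgeR). The share of all genes called in that fit is not given here, so nothing is read from the call. With the Y-linked expression of each library as a covariate, Cartpt was -1.27 (adjusted p = 0.996 by edgeR). Marker lists of neighbouring tissue had, in the same comparison, median log2 values of -1.23 for the choroid plexus list and -0.45 for the thalamic list. The striatal list had -0.39 and the hypothalamic list -0.38. No gene of these lists was called. The choroid plexus sum was 4076, 7876, 6397 and 196 CPM in WT mice 30, 31, 37 and 77. In APPPS1ΔE9 mice 17, 71, 74 and 75 it was 6895, 69.1, 725 and 192 CPM. The WT mouse with the fewest Cartpt reads had the lowest sum of its arm. Mouse 17, with the highest sum of the APPPS1ΔE9 arm, had 1.07 CPM of Cartpt, below mice 74 and 75 at 1.23 and 1.30 CPM. The part of these tissues in the Cartpt value was not tested. In the post-plaque group, 0 of 3 were called against 0.324% of all genes, and Pomc differed by -6.52 on the log2 scale with a standard error of 1.75 (adjusted p = 0.440). Without mouse 52 this Pomc value was -3.08 (adjusted p = 0.389). In the anle138b-treated mice, APPPS1ΔE9 against WT, 0 of 5 were called in the pre-plaque group against 0.0470% of all genes, and 0 of 2 in the post-plaque group against 0.723%. Cartpt had the smallest p in both, at 0.60 in the pre-plaque group (standard error 0.29, adjusted p = 0.836 by edgeR). In the post-plaque group it was -0.43 (standard error 0.30, adjusted p = 0.838 by edgeR). Prl and Gh had log2 values of -4.89 and -4.51 in the pre-plaque group (adjusted p = 0.836 for both by edgeR). The WT arm there contains mouse 33, for which the genes were chosen, so nothing is read from the Prl and Gh values.

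anle138b against placebo gave no call either. In WT mice, 0 of 2 members were called in the pre-plaque group and 0 of 2 in the post-plaque group, against 0% of all genes in both. Pomc had log2 fold changes of 2.81 (adjusted p = 0.9998 by edgeR) and -6.35 (adjusted p = 0.99996 by edgeR), with mouse 33 in the anle138b arm of the first and mouse 52 in the placebo arm of the second. Without mouse 52, the second value was -2.89 and so stayed negative. Mice 53 and 55 of the same placebo arm had 242 and 286 Pomc reads, against 12 to 29 in the anle138b arm. In APPPS1ΔE9 mice, 0 of 4 were called in the pre-plaque group against 0.0529% of all genes and 0 of 2 in the post-plaque group against 0%. Cartpt differed there by 0.75 (standard error 0.29, adjusted p = 0.345 by edgeR) in the pre-plaque group, and Pomc by 0.32 (adjusted p = 0.999 by edgeR) in the post-plaque group. At an unadjusted p under 0.05, edgeR listed Cartpt in 3 of the 4 pre-plaque comparisons, where 11.1%, 13.1% and 1.85% of all genes passed, Pomc and Gh in 1 post-plaque comparison (4.10% of all genes) and Pomc in another (1.25%). DESeq2 called 0 members in all 8, where it gave no adjusted p for 10 of the 22 tested values.

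**Figure D4:**
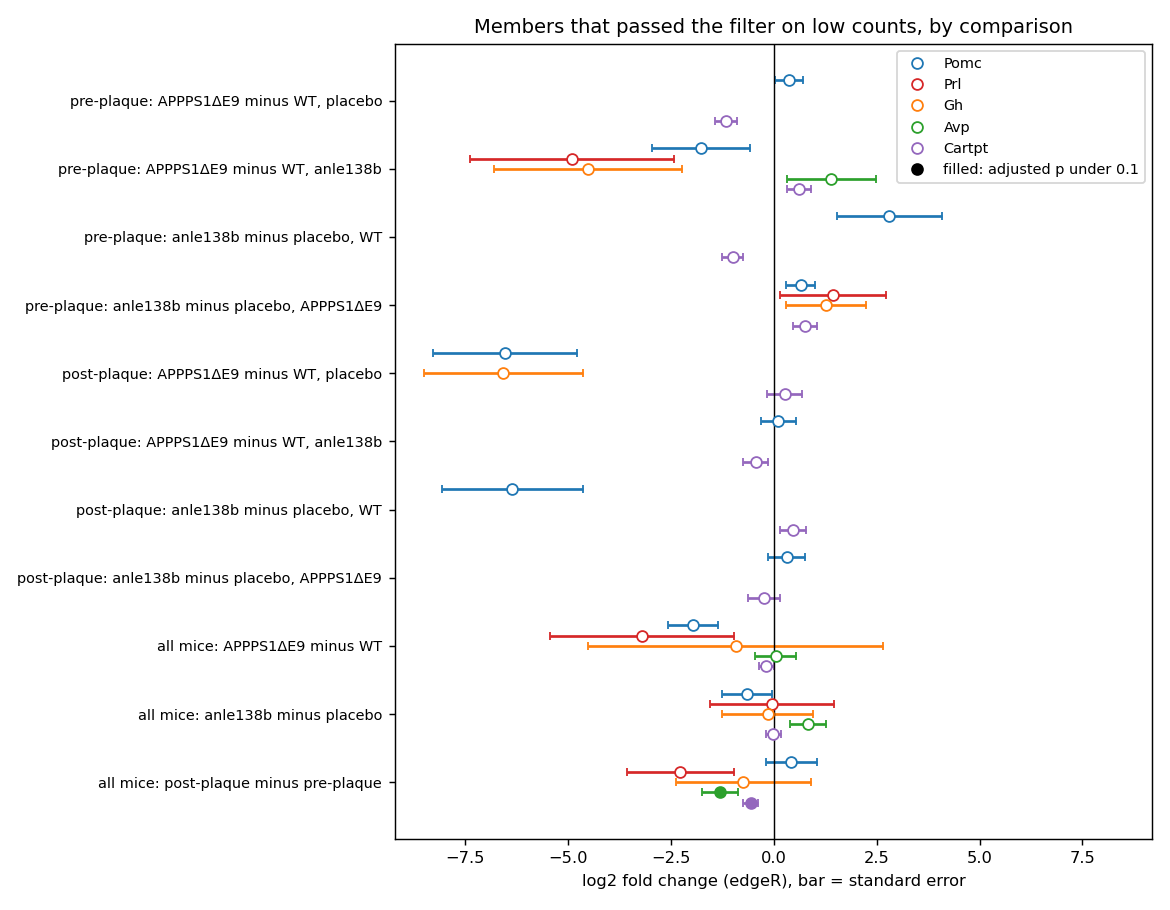
Log2 fold changes from edgeR with standard errors for the members that passed the filter, by comparison, filled where the adjusted p was under 0.1. The widest bar is that of Gh by genotype over all mice (-0.93, standard error 3.57), where WT arms contain mice 33 and 52. Between 1 arm and another, the widest is Prl by genotype in pre-plaque mice on anle138b (-4.89, standard error 2.47), where the WT arm contains mouse 33. Gh in placebo-treated post-plaque mice is at -6.57 (standard error 1.93). The 2 filled points are Avp and Cartpt in the contrast between the groups.

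With all 38 mice in a single fit over the 8 arms, 5 members were tested and 0 were called for genotype, against 1.46% of all genes. Pomc in APPPS1ΔE9 against WT mice was -1.96 on the log2 scale (SE 0.62, adjusted p = 0.183 by edgeR), while DESeq2 called Pomc and Prl. Without mice 33 and 52 the Pomc value was -0.49 (adjusted p = 0.720). With the Y-linked expression of each library as a covariate it was 0.074 (adjusted p = 0.995). For anle138b against placebo, 0 of 5 were called against 0% of all genes, and Avp had the smallest p, at 0.83 on the log2 scale (SE 0.43, adjusted p = 0.9998 by edgeR). At an unadjusted p under 0.05, edgeR listed 1 of 5 members for genotype, Pomc, against 8.91% of all genes, and 0 for anle138b, against 4.81%. DESeq2 called 1.63% of all genes in the genotype contrast, whose WT arms contain mice 33 and 52, for which the genes were chosen.

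The tests of whether an effect differed between the groups gave 0 calls by edgeR for genotype by group, anle138b by group and genotype by anle138b, against 0.176%, 0% and 0% of all genes. The smallest p-values of members were those of anle138b by group, with -4.76 for Pomc (edgeR, unadjusted p = 0.00049) and -9.58 for Gh (edgeR, unadjusted p = 0.00093), both with an adjusted p of 0.99996. DESeq2 called Pomc, Prl and Gh in this term, among 5 genes in all (0.0275%). Nothing is read from these calls, because the genes were chosen for mice 33 and 52. Mouse 33, in the anle138b arm of the pre-plaque group, and mouse 52, in the placebo arm of the post-plaque group, enter the term with the same sign. High reads in either mouse thus lower its value.

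Between the post-plaque and the pre-plaque group, 2 of 5 tested members were called, both lower in the post-plaque group. This stands beside 61.8% of all genes called in the same contrast, so the share of members is not above the background. The groups differ in age and in the age at which treatment began, and only the post-plaque group has libraries in lane 3. Library number 31 in lane 6 is the label of mouse 15 (pre-plaque) and also of mouse 59 (post-plaque). The groups are taken as sequenced separately, although the labels name no run. Age, start of treatment and sequencing cannot be told apart in this contrast. Avp was 0.153 ± 0.107 CPM (SD, n = 22) in the post-plaque group and 0.450 ± 0.559 CPM (SD, n = 16) in the pre-plaque group, which is -1.30 on the log2 scale (SE 0.43, adjusted p = 0.0111 by edgeR). Cartpt was 1.12 ± 0.50 CPM (SD, n = 22) against 1.73 ± 0.80 CPM (SD, n = 16), which is -0.55 on the log2 scale (SE 0.18, adjusted p = 0.0108 by edgeR). Both ranges overlapped between the groups. Pomc, Prl and Gh were not called, at 0.43, -2.27 and -0.74. DESeq2 called Avp, Cartpt and also Prl.

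The choroid plexus, a tissue next to the hippocampus, moved with this contrast. All 10 choroid plexus genes, among them Ttr, the transthyretin gene, were lower in the post-plaque group, with a median log2 fold change of -3.90 against -0.02 over all genes. Their sum had a median of 6307 CPM in the pre-plaque group and 99.7 CPM in the post-plaque group, with ranges of 69.1 to 8108 and 37.04 to 4481 CPM, and no gene of the list was at 0 in any mouse. Other marker lists stood nearer to the 61.8% of all genes called: 3 of 7 hypothalamic markers (Baiap3, Hdc and Irs4, lower), 6 of 10 thalamic markers (lower), 5 of 7 striatal markers (4 lower and 1 higher) and 3 of 5 neocortical markers (lower). Of 2 tested anterior pituitary markers, Lhb was lower in the post-plaque group (-1.79, adjusted p = 2.2e-05 by edgeR). Of 10 hippocampal markers, Zbtb20 was higher (0.45) and Spink8 lower (-0.18). Of 5 markers of monoamine neurons, Th and Slc6a3 were lower (-1.02 and -0.93) and Dbh was higher (0.70). The hypothalamic sum was 23.96 to 66.3 CPM in the pre-plaque group and 10.2 to 65.9 CPM in the post-plaque group. The hypothalamic factors Sim1 and Otp were at 0 in 28 and 4 mice.

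Within the pre-plaque group, the choroid plexus sum was over 1000 CPM in 10 mice and under it in 6, with no mouse between 725 and 4076 CPM. This split was not particular to the choroid plexus list. The striatal sum was 92.2 to 121 CPM in the same 10 mice and 55.6 to 73.5 CPM in the 6. The sum of 11 receptor genes of these hormones was 112 to 199 CPM and 60.4 to 66.6 CPM. Avp was 0 to 2.13 CPM with a median of 0.487 in the 10 mice and 0 to 0.338 CPM with a median of 0.0752 in the 6, against a median of 0.123 CPM in the post-plaque group. All 6 mice with 10 or more Avp reads were among the 10. Cartpt was 1.07 to 3.26 CPM with a median of 2.06 in the 10 mice and 0.876 to 1.43 CPM with a median of 1.24 in the 6. Its median in the post-plaque group was 1.09 CPM. Mice 17, 33, 39 and 41 of the 10 had 1.07, 1.29, 1.07 and 1.28 CPM, within the range of the 6. Mouse 99, the 1 post-plaque mouse over 1000 CPM, had 0.364 CPM of Cartpt, the lowest of all mice, and 2 Avp reads. The part of neighbouring tissue in the Avp and Cartpt differences was not tested. In mouse 52, the choroid plexus sum was 143 CPM, and in mouse 33 it was 8108 CPM, the highest of all, so the 2 mice richest in pituitary reads differed in this respect.

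**Figure D5:**
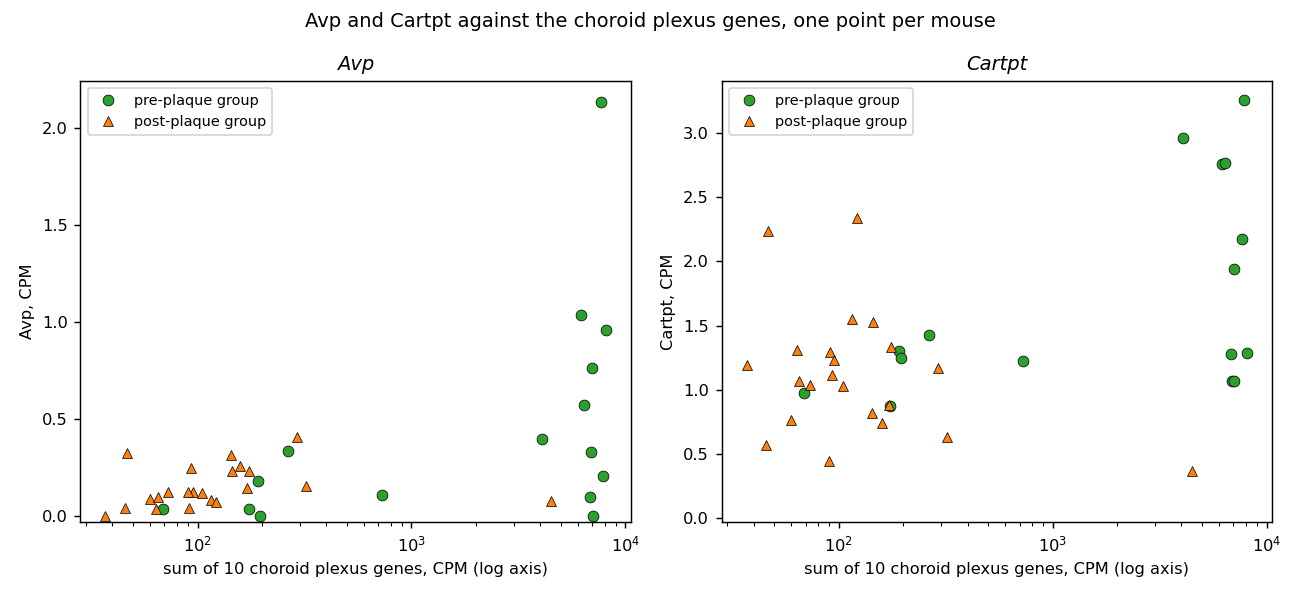
CPM of Avp and Cartpt against the sum of 10 choroid plexus genes (log axis) in each mouse, with the pre-plaque and post-plaque groups in different colours. The 6 mice with 10 or more Avp reads all lie on the right, at choroid plexus sums of 4076 CPM or more. The post-plaque mice lie on the left except for 1 at 4481 CPM, which has the lowest Cartpt value of all mice, 0.364 CPM.

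The sum of the hypothalamic marker list was 66.3 CPM in mouse 16, the deepest library, and 43.2 CPM in mouse 27, the leaders for Avp and Oxt, against 65.9, 58.8 and 55.2 CPM in mice 57, 60 and 63, which had 2, 8 and 1 Avp reads. Gpr101 and Baiap3 had the highest medians of this list, 14.2 and 11.3 CPM. The neocortical sum was 112, 93.7 and 112 CPM in mice 57, 60 and 63 and 98.4 and 80.85 CPM in mice 16 and 27. The hippocampal sum was 860, 888 and 940 CPM in the former and 965 and 1022 CPM in the latter. Which tissue the hypothalamic sum draws on was not tested. Sim1, a factor of the neurons that make vasopressin, was counted 0 and 4 times in mice 16 and 27. The next 3 genes were chosen after their values were seen. Irs4 was counted 114 and 43 times in them against a median of 13, Hdc, the histidine decarboxylase gene, 166 and 152 times against a median of 65, and Baiap3 1088 and 525 times against a median of 270.5. Mouse 16 had the highest Irs4 and Baiap3 level of all mice. In mouse 52, the same genes were counted 17, 26 and 346 times.

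Of 11 receptor genes of these hormones, 10 were tested between the post-plaque and the pre-plaque group and 4 were lower, a share below the 61.8% of all genes called in this contrast. They were Prlr, the prolactin receptor, at -2.62, Mc3r, a melanocortin receptor, at -2.95, Avpr1a, a vasopressin receptor, at -1.43, and Hcrtr2, a hypocretin receptor, at -0.38 on the log2 scale. Prlr is also strongly expressed in choroid plexus. It was counted 3498 times in mouse 33, 2331 and 2362 times in mice 16 and 27, and 154 times in mouse 52. Oxtr, Mc4r and Ghr, the receptors for oxytocin, melanocortins and growth hormone, were counted at least 63, 64 and 131 times in every mouse and were not called.

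Genes that process prohormones were high in all libraries. Cpe, the carboxypeptidase that trims hormone precursors, was 2077 to 2902 CPM, and Pcsk2, a prohormone convertase, was 232 to 344 CPM. Of 10 such genes tested between the groups, 5 were lower in the post-plaque group, against 61.8% of all genes called (Cpe, Pam, Pcsk1, Scg2 and Scg5), by -0.48 for Pcsk1 and by -0.11 to -0.22 for the other 4. Of 14 other peptide genes tested, 4 were lower, again a smaller share than that of all genes: Nts at -1.07, Tac1 at -0.47, Vip at -0.33 and Sst at -0.29. Genes of the hypothalamic releasing hormones were read little, with Ghrh at 0 to 8 reads and Crh at 7 to 43 reads per mouse, while Trh was counted 3 to 144 times, the most in mouse 17. Across the other comparisons, the only call in the lists of neighbouring tissues, receptors, processing and peptide genes was Rora, a thalamic marker, lower in APPPS1ΔE9 mice by -0.19 in the fit of all mice.

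For each member, the genes with the most similar pattern over mice were listed. Deviations of log2 CPM from the arm mean were compared over the 38 mice with 20720 genes, a description in which all values of a mouse share 1 library. The nearest gene to Prl was Gh (r = 0.907, and 0.828 without the 2 mice farthest from the median), followed by Cga at 0.826, Pomc at 0.811, Rmc1 at 0.619 and Angptl7 at 0.608. The nearest to Gh were Prl, Cga, Pomc, P2ry14 and Rmc1. The nearest to Pomc were Cga (r = 0.882, and 0.689 without 2 mice), Prl, Gh, Tcf23 and Oacyl, and those to Cga were Pomc, Prl, Gh, Akr1c14 and Hltf. These orders draw on mice 52 and 33, for which the genes were chosen. Without the 2 mice farthest from the median, Tcf23 (r = 0.552) came before Gh (r = 0.520) for Pomc, and over all mice Spearman's rho was 0.375 between Pomc and Cga and 0.462 between Gh and Cga.

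The hypothalamic genes formed a looser pattern. The nearest to Oxt was Avp (r = 0.702, and 0.550 without 2 mice), then Sod3, Brip1os, H2-T23 and Aga. The nearest to Avp were Cyp39a1 (r = 0.754, and 0.731 without 2 mice), Oxt, Zmynd15, Cyp4f17 and Mrln. Cartpt was nearest to Exoc3l (r = 0.707), Ahi1, Pdxk, Cyp46a1 and Adam33 and to no other member. Avp and Prl had r = 0.359, and Pomc and Cartpt had r = 0.049. Hcrt and Pmch were too low for this measure.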

How the data were processed

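Hippocampal tissue was extracted with TRIZOL, and TruSeq mRNA libraries were sequenced. The authors aligned reads to mm10 with STAR and counted them per gene with HTSeq. The deposited values are raw counts, and the annotation release and strand setting are not given in the sources used here. The authors tested with DESeq2. Groups follow the sample titles, because the genotype entry of 4 pre-plaque WT mice on placebo names the transgene.

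The members and gene lists were chosen with earlier results of these data known. Symbols came from GENCODE M21 (48349 of 48709 identifiers), gene positions from its GRCm38 annotation and promoters from RefSeq, which held 8 of the 9 members. CPM used the total count of each library. edgeR 4.0.16 (filterByExpr with a minimum count of 10 and a total of 15, TMM, quasi-likelihood test, adjusted p under 0.1) was run in R 4.3.3 on each pair of arms and on all 38 mice, with DESeq2 1.42.0 as an alternative. The scripts were tested on simulated data. Nothing states that mice of an arm came from separate litters or cages, so p-values measure the spread between these libraries. No 2 libraries of an arm agreed within sampling noise (75 pairs, chi-square per degree of freedom 3.17 to 65.3). Intervals are Wilson intervals at 95% and cover counting error only.

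By rule, each comparison gives the fold change of every member past the threshold or else of the member with the smallest p, and each list gives genes past the threshold and genes with the highest ratio of a single mouse to the median. Other named values were chosen after they were seen. A gene of the pituitary list is not reported here. The 5 genes nearest each member were taken by Pearson r of log2 CPM (prior count 2) among genes with 10 or more reads in 1 mouse. The limit of 1000 CPM for the choroid plexus sum was chosen after seeing the data. Alternatives were RLE size factors, no filter, an adjusted p under 0.05, a Y-linked covariate, a replicate block, all mice in one fit and leaving out each mouse, and, added after seeing the data, leaving out mice 33 and 52 and nesting the replicate block in the age groups.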

Additional observations from a re-analysis of the deposited data

Results flagged for a closer look

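Within each arm, a mouse was picked out where its gap to the nearest other mouse took up nearly the whole range of log2 CPM (Dixon's test at the 95% level). Of 72 combinations of gene and arm, 20 were picked out. The rate of about 1 in 20 groups that chance gives in this test does not hold for counts this low, nor for genes that were chosen for such mice, so the number is a description and is not compared with it.

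Prl in mouse 30 (placebo-treated WT, pre-plaque) was 2.72 CPM from 68 reads, against at most 0.0894 CPM in the rest of its arm. Gh in mouse 86 (placebo-treated APPPS1ΔE9, post-plaque) was 1.06 CPM from 26 reads, against at most 0.0793 CPM. Cga was 4.73 CPM in mouse 52, against at most 0.119 CPM in the other placebo-treated WT mice of the post-plaque group, and 1.71 CPM in mouse 33, with 0 in the rest of its arm (pre-plaque WT mice on anle138b). Oxt in mouse 33 was 0.250 CPM from 6 reads, with 0 in the others.

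The remaining 15 rest on 1 or 2 reads, or on a mouse without a read where all others of the arm had some. They include single reads of Gh in mouse 61 (0.0385 CPM), of Cga in mice 58 (0.0413), 57 (0.0372), 64 (0.0425), 16 (0.0314), 17 (0.0412) and 30 (0.0400), and of Oxt in mice 60 (0.0407) and 75 (0.0449). Oxt in mouse 52 was 0.126 CPM from 2 reads. Oxt in mouse 97 and Hcrt in mice 62, 27, 74 and 31 were 0 where the other mice of the arm had 1 or more reads.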

How the results depend on the processing

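Of 316 values of named members under an alternative setting, 305 kept their direction and their side of the threshold, 7 kept the direction and passed the threshold, and 4 reversed. Both calls between the post-plaque and the pre-plaque group, Avp and Cartpt, held under every alternative with 1 exception, a replicate block nested in the age groups. It was the first coding of the block and was replaced after its values had been seen by a block crossed over the groups (-1.23 for Avp and -0.49 for Cartpt), because nested numbers are confounded with the contrast between age groups, which then rests on mice of 1 number per group. Nested, Avp was 0.83 (adjusted p = 0.559 by edgeR) and Cartpt 0.35 (adjusted p = 0.515 by edgeR), and 2 members were called, neither of them Avp or Cartpt. The share of all genes called with the nested block is not given here, so nothing is read from these 2 calls. Apart from that, leaving out 1 mouse gave 2 to 3 calls, -1.41 to -1.01 for Avp and -0.65 to -0.49 for Cartpt.

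In placebo-treated pre-plaque mice, APPPS1ΔE9 against WT, 1 member, Cartpt, was called without the filter (-1.16, adjusted p = 0.0081 by edgeR), and leaving out 1 mouse gave 0 to 1 call. With all 38 mice in one fit, 3 members were called in placebo-treated post-plaque mice by genotype, among them Pomc (-6.54), and 1 for anle138b in post-plaque WT mice, Pomc (-6.35). The placebo-treated WT arm of both comparisons contains mouse 52, for which the genes were chosen. Over all mice, DESeq2 called 2 members for genotype and 3 in the interactions, and the Y-linked covariate turned Pomc to 0.074. Leaving out 1 mouse gave 0 to 1 call for genotype, Pomc without mouse 54 (-2.03, adjusted p = 0.0826 by edgeR) or without mouse 56 (-2.03, adjusted p = 0.0845 by edgeR). For anle138b in post-plaque APPPS1ΔE9 mice, Pomc ranged from -0.11 to 0.59, below 0 without mouse 59. The share of all genes called is not given here for these edgeR alternatives, so nothing is read from the counts of members. The causes were not tested.

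Correlations of same-numbered mice were over 0.1 for 4 of 5, 3 of 4 and 3 of 4 pairs in 3 comparisons (means 0.350, 0.224 and 0.207) and for fewer in the other 5, and in no comparison for every pair, so the numbers were not taken to pair the mice. The crossed block changed no call. Members with fewer than 10 reads (Hcrt and Pmch in every mouse, Oxt in all but 2) are limited by depth.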
